A study of Homo sapiens with 6 samples.

Results

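RNA levels of 41 nuclear pore and mRNA export genes were followed in A673 and SKNMC cells, established lines of Ewing sarcoma, a bone and soft tissue tumor of the young. The genes were chosen by symbol, as structural parts of the nuclear pore or as carriers of RNA and protein through it, and all 41 were found among the 27420 genes of the deposited table, each listed once. Cells of both lines received THZ1, a covalent inhibitor of the kinase CDK7, which phosphorylates the tail of RNA polymerase II, at a dose of 50 or 200 nM, or its solvent DMSO alone, and RNA was taken after 6 h. There was 1 library for each of the 6 conditions, made from total RNA, so no difference could be set against the spread between replicates, and no p-value or error is given for any gene. Both lines carry the EWS-FLI1 fusion typical of this tumor and were grown in the same medium with serum. The comparison with DMSO asks how transcripts respond to a lower and a higher dose of the inhibitor.

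The nuclear pore complex is a channel through the nuclear envelope built from many copies of proteins called nucleoporins. A scaffold of an outer ring (the Y complex) and an inner ring is held in the membrane by anchor proteins, the central channel is filled with proteins rich in phenylalanine-glycine (FG) repeats, and fibrils reach into the nucleus (the basket) and into the cytoplasm. Proteins cross with karyopherins such as KPNB1 (importin beta) and XPO1 (exportin 1, CRM1), whose cargo is loaded and released by the small GTPase RAN. Bulk mRNA leaves by another route: the THO complex and ALYREF load the heterodimer of NXF1 and NXT1 onto the transcript, and at the cytoplasmic face GLE1 helps a helicase to strip it off again.

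Expression is given as FPKM, the number of sequenced fragments relative to transcript length and library size, which can be compared between genes. A change is the log2 of the ratio of FPKM with 1 added to both values, and it understates the change of genes with low levels. FPKM is a share of a library, so a loss of RNA spread evenly over all genes leaves no trace, and less RNA per cell cannot be told apart from fewer cells. A gene counted as active in a line if its DMSO library held over 1 FPKM of it. All 41 genes were active in SKNMC and 40 in A673, where NUP210 was not, and none was listed at 0 in a library. The sums of the listed values lay between 97.8% and 100.5% of the DMSO sum of the line, and the depth estimated from the lowest values lay between 88.7% and 96.8% of that of the DMSO library, a rough figure as under 1% of the low values sat at it. The 5 markers checked for Ewing sarcoma (CD99, NKX2-2, FLI1, NR0B1 and STEAP1) were above 1 FPKM in all 6 libraries. Of 6 markers of other cell types 5 were found, and their summed level was 0.0430 to 0.101 FPKM in A673 and 8.38 to 14.0 FPKM in SKNMC. Nearly all of the SKNMC sum was PTPRC, the leukocyte phosphatase CD45, at 7.90 to 13.1 FPKM, whereas CD3E and KRT5 are listed at 0 in all 6 libraries; its part in the differences between the lines was not tested.

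With DMSO, 36 of the 41 genes lay between 10 and 80 FPKM in both lines, and the median was 34.6 FPKM in A673 and 35.2 FPKM in SKNMC, against 14.1 and 13.5 FPKM over all active genes. RAN was far above the rest, at 646 FPKM in A673 and 632 FPKM in SKNMC. Next in order were ALYREF (122 FPKM in A673 and 88.5 in SKNMC), KPNB1 (109 and 149) and XPO1 (101 and 116), then SEC13 (79.8 and 63.3), an outer ring protein that also serves in COPII vesicle coats. The order of these genes differed between the lines, and with 1 library each no neighbours in it can be separated. Within structures, the 8 outer ring genes spanned a factor of 3.45 in A673 and 2.996 in SKNMC, the 5 inner ring genes 1.95 and 1.80, the 4 central channel genes 2.68 and 1.34, and the 6 genes of the cytoplasmic face 4.32 and 3.17. Far below the other membrane anchors was NUP210, a membrane glycoprotein known to vary between tissues, at 0.184 FPKM in A673 and 1.81 FPKM in SKNMC.

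Between the lines with DMSO, 3 of the 41 genes were at least 2-fold higher in SKNMC (15% of the 12399 genes active in either line) and 1 was at least 2-fold lower (8.42%). NDC1, a membrane anchor of the scaffold, stood at 21.7 FPKM in A673 and 47.9 FPKM in SKNMC, a log2 difference of 1.11. NUP54, a central channel protein, stood at 18.0 and 39.1 FPKM, a log2 difference of 1.07. NUP210 made up the third, but it was active in SKNMC alone and so entered the count only through the line where it was higher. NUP160, which sits at the branch of the Y complex, was the one that was lower in SKNMC, at 73.9 FPKM in A673 and 35.7 FPKM in SKNMC (log2 difference -1.03).

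**Figure D1:**
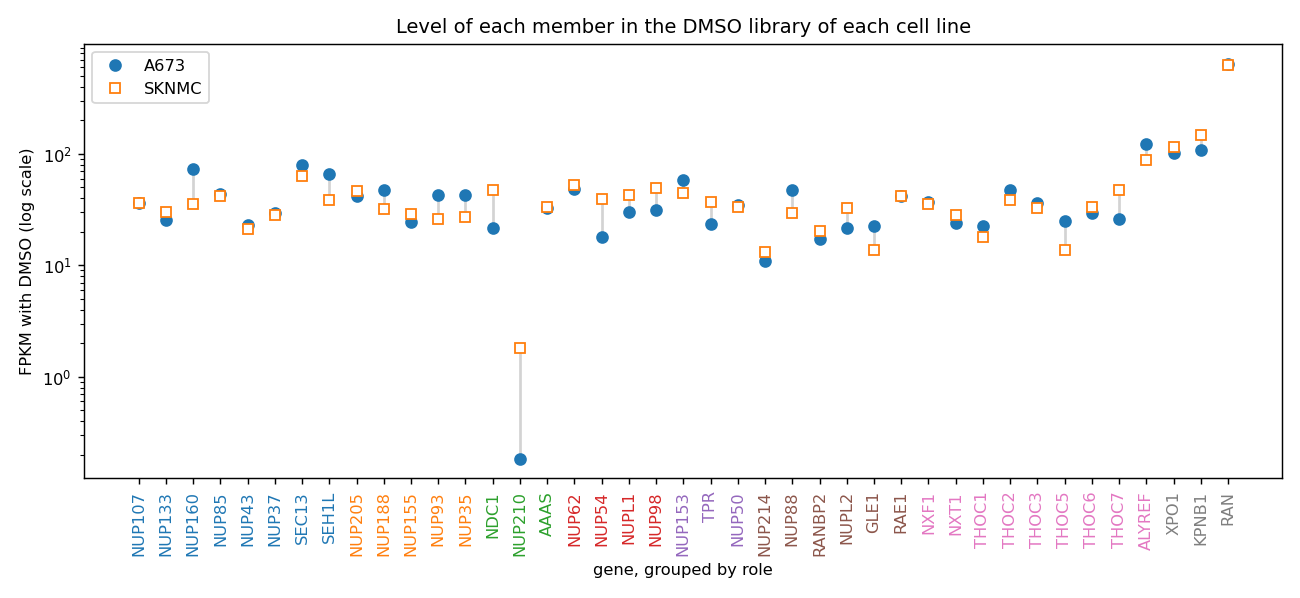
FPKM in the DMSO library of A673 (filled circles) and SKNMC (open squares) on a log axis for the 41 genes, grouped by role as shown by the color of the names. Most genes lie between 10 and 80 FPKM in both lines, RAN is highest at 646 and 632 FPKM, and NUP210 is lowest at 0.184 and 1.81 FPKM.

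Under THZ1 the 41 genes did not move as 1 block. In A673, 2 of 40 active genes (NUP62 and NUP37) were at least 2-fold lower at 50 nM, where 15.9% of all active genes were, and 6 of 40 at 200 nM, where 25.3% of all active genes were. In SKNMC, the same 2 genes of 41 were at least 2-fold lower at 50 nM (15.8% of all active genes) and 10 of 41 at 200 nM (27.3%). NXF1 was the 1 gene at least 2-fold higher at 50 nM in both lines, a change that 0.343% of all active genes reached in A673 and 0.471% in SKNMC. At 200 nM none of the 41 was at least 2-fold higher (0.126% and 0.462% of all active genes). In all, 12 genes passed the 2-fold limit in at least 1 of the 4 comparisons with DMSO (NUP37, NUP155, NUP62, NUP54, NUP98, NUP153, NUP50, NUP214, NUPL2, RAE1, NXF1 and NXT1) and 29 did not. The share of all active genes that passed in at least 1 of the 4 was not computed. The shares of single comparisons are no background for this count. The median log2 change of the active genes among the 41 in A673 was -0.25 with the lower dose and -0.43 with the higher. Over all active genes it was -0.27 and -0.40. For SKNMC the medians were -0.36 and -0.65, beside -0.32 and -0.55. At 200 nM in SKNMC the share at least 2-fold lower, 24.4%, was near the 27.3% of all active genes. With FPKM as deposited and the 2-fold limit, the share of lower genes was smaller among the 41 than among all active genes in each comparison. At 200 nM this order turned in both lines with ribosomal protein scaling, to 37.5% against 34.9% in A673 and 65.9% against 50.3% in SKNMC, and with a limit of 1.5-fold, to 42.5% against 41.1% and 53.7% against 48.0%. The genes below DMSO by any amount made up 75% and 82.5% of the 40 in A673, against 70.1% and 70.4% of all active genes, and 73.2% and 90.2% of the 41 in SKNMC, against 73.0% and 80.8%.

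**Figure D2:**
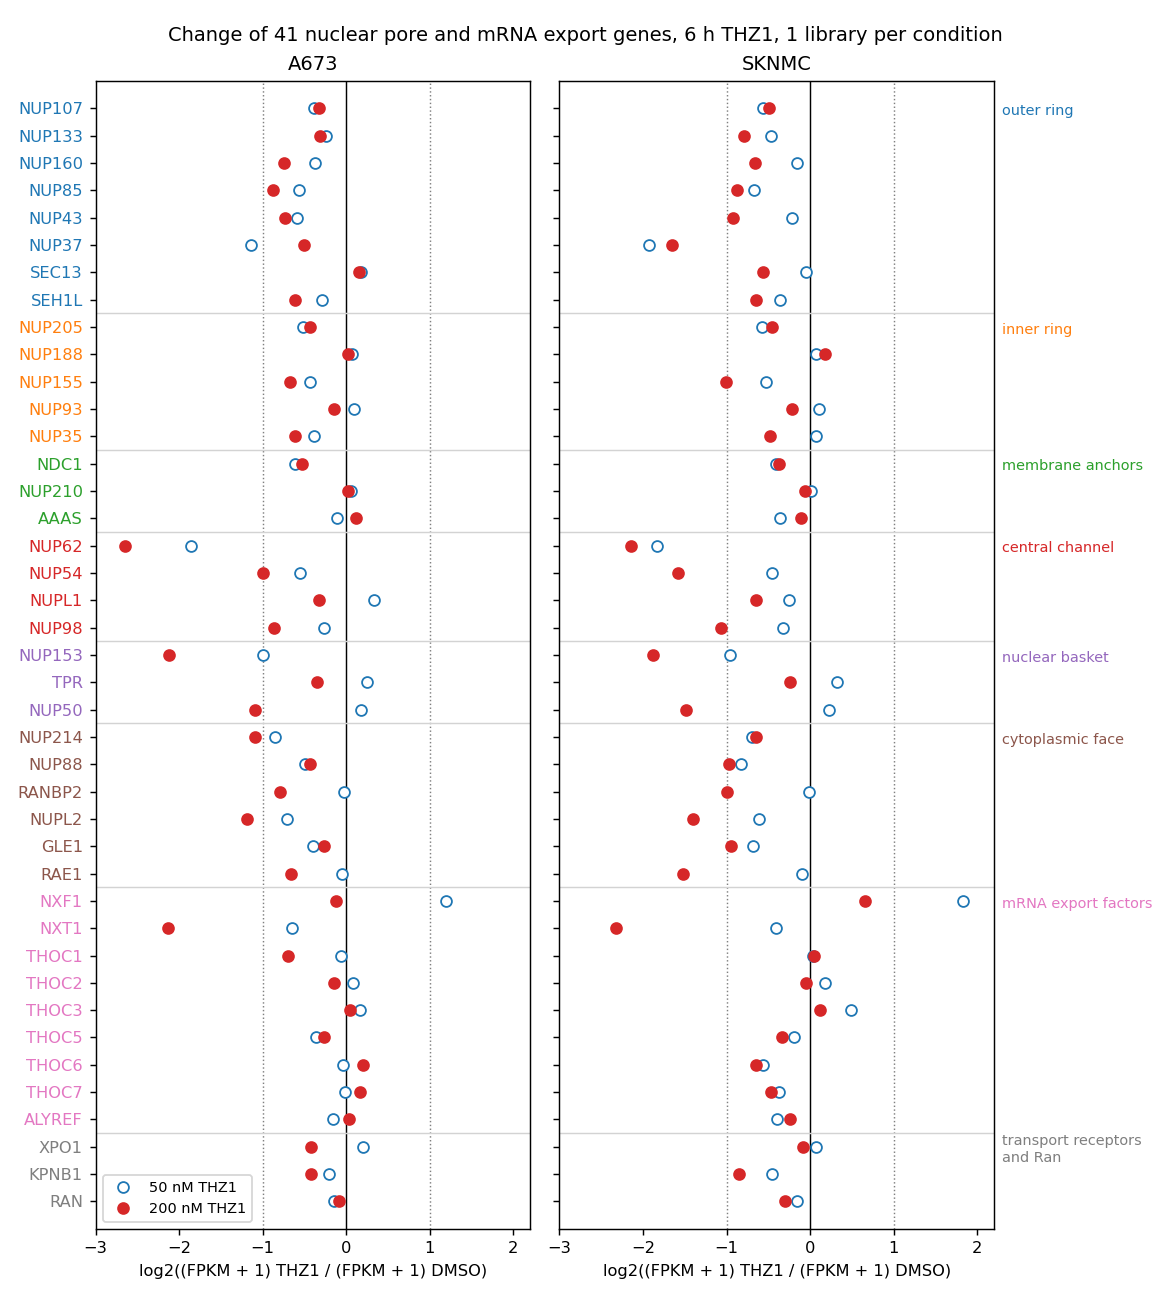
Log2 change against DMSO of each gene at 50 nM (open circles) and 200 nM THZ1 (filled circles) in A673 (left) and SKNMC (right), 1 library per condition, with dotted lines at 2-fold and genes grouped by role. NUP62, NUP37, NUP153, NUP50, NUP54, NUPL2, RAE1, NXT1 and NXF1 stand apart in at least 1 line from the others, which mostly lie between -1 and 0.5.

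FPKM is relative, and the choice of scaling decides the sign of small changes. Scaling to the 75th percentile of active genes shifted the median change over all active genes upward by 0.22 and 0.32 in A673 (50 and 200 nM) and by 0.25 and 0.48 in SKNMC. Scaling to ribosomal protein genes shifted it by -0.19 and -0.29 in A673 and by -0.32 and -0.46 in SKNMC. With 3 scalings tried (these and a common sum), 17 or 18 of the 41 genes changed sign under 1 of them in each comparison. None did so in a comparison where it was changed at least 2-fold against DMSO. NUP62 kept its 2-fold call in all 4 comparisons under each of the 3 scalings, and NUP153 and NXT1 kept theirs at 200 nM in both lines. In SKNMC, NUP37 kept its calls at both doses, NXF1 at 50 nM and NUP54 at 200 nM. In A673, NUP37 and NXF1 each lost their call at 50 nM under 1 scaling. The calls of NUP50, NUPL2, NUP214, NUP155, NUP98 and RAE1 were lost with the 75th percentile. That of NUP155 was also lost with the common sum (-0.97).

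Promoter sequences of 4 genes that stand for the different patterns are given here, 250 bases up to the RefSeq start of the gene on GRCh38.p14, in the direction of transcription: NUP62 (lower at both doses, chr19:49929505-49929754, minus strand), NUP50 (lower at 200 nM alone, chr22:45163675-45163924, plus strand), and the partners NXF1 (higher at 50 nM, chr11:62805441-62805690, minus strand) and NXT1 (lower, most of all at 200 nM, chr20:23350541-23350790, plus strand). Capitals mark matches on either strand to the letters CCGGAAGT (an ETS site), GCATGCGC (part of an NRF1 site), CCAAT or TATAAA.
NUP62: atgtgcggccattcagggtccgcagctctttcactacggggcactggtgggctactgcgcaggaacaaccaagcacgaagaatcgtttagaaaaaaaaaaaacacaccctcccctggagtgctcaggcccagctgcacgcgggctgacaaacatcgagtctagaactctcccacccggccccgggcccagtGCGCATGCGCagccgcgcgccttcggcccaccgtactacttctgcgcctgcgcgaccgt
NUP50: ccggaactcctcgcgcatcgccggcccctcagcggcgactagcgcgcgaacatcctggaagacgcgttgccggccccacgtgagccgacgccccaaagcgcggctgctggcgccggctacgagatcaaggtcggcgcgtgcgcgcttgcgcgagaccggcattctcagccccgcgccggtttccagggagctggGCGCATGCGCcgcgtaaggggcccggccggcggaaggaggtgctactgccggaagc
NXF1: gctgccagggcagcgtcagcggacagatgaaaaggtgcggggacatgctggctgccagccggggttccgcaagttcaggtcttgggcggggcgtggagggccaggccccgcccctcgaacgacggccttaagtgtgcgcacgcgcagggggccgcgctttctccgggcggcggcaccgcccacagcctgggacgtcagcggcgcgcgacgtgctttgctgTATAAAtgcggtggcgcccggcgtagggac
NXT1: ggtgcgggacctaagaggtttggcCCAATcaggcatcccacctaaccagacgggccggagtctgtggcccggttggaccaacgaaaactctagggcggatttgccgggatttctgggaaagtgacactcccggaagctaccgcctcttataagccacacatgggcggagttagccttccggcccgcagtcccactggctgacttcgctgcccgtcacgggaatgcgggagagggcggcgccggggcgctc

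The promoters of NUP62 and NUP50 both held the palindrome GCGCATGCGC, in which the GCATGCGC letters match on both strands. These letters were found upstream of 3 of the 37 genes with a RefSeq promoter (8.11%, the third being NUP107) and in 4.98% of the promoters of all active genes of the same length (2.81% of all promoters). The ETS letters CCGGAAGT were upstream of 6 of 37 genes (16.2%: NUP160, SEC13, NUP35, NUP54, NUPL1 and ALYREF), against 7.48% of active genes and 3.64% of all promoters. CCAAT was upstream of 14 of 37 (37.8%), against 35.2% of active genes and 33.0% of all promoters. TATAAA was upstream of NXF1 and ALYREF alone (5.41%), against 5.08% and 11.1%. These are matches of letters at 1 start per gene, and neither binding nor the start in use was measured.

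In the central channel, NUP62 had the largest decrease of the 41 genes in A673 at both doses. NUP62, the FG nucleoporin that forms the core of the channel with NUP54 and NUPL1 (NUP58), stood at 48.4 FPKM in the A673 DMSO library, 12.6 under 50 nM and 6.87 under 200 nM THZ1, and at 52.4, 14.0 and 11.1 FPKM in SKNMC. Its THZ1 libraries thus held 26.1% and 14.2% of the DMSO level in A673 and 26.6% and 21.2% in SKNMC, all 4 far below both DMSO libraries. The log2 changes were -1.86 and -2.65 in A673 and -1.84 and -2.14 in SKNMC. NUP54 had 18.0, 12.04 and 8.54 FPKM in A673 and 39.1, 28.1 and 12.4 FPKM in SKNMC, with log2 changes of -0.55, -0.997, -0.46 and -1.58. The second was short of the limit only through the pseudocount, since the FPKM itself was 47.3% of the DMSO level. NUPL1, the third partner of that subcomplex, had 30.0, 38.0 and 23.7 FPKM in A673 and 43.0, 35.9 and 27.0 FPKM in SKNMC, so it was above DMSO at 50 nM in A673 and below it in the other 3 THZ1 libraries. NUP98, an FG nucleoporin that also binds RAE1, had 31.5, 26.2 and 16.9 FPKM in A673 and 49.8, 39.6 and 23.2 FPKM in SKNMC, and passed the 2-fold limit in SKNMC at 200 nM alone (log2 change -1.07).

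The 3 genes of the nuclear basket had 3 different courses. NUP153, which anchors the basket to the pore, went from 58.5 FPKM in the A673 DMSO library to 28.9 under 50 nM and 12.7 under 200 nM THZ1, and from 44.8 to 22.6 and 11.4 FPKM in SKNMC. Its log2 change at 50 nM was -0.99 in A673 and -0.96 in SKNMC, short of the limit, with FPKM at 49.4% and 50.5% of the DMSO level, and at 200 nM it was -2.12 and -1.89. NUP50, a mobile basket protein that takes part in importin release, had 34.6, 39.1 and 15.6 FPKM in A673 and 33.2, 39.2 and 11.2 FPKM in SKNMC. It was therefore a little above DMSO at 50 nM in both lines (log2 change 0.17 and 0.23, below 0 with ribosomal protein scaling). At 200 nM it was below DMSO (-1.10 and -1.49, or -0.74 and -0.96 with the 75th percentile). TPR, the coiled-coil protein that forms the basket filaments, had 23.3, 27.9 and 18.1 FPKM in A673 and 36.9, 46.6 and 31.1 FPKM in SKNMC, within 2-fold of DMSO throughout. In these 2 last genes the 50 nM library held the highest value of the 3 in both lines.

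The partners of the mRNA export receptor moved apart. NXF1, which binds the mRNA and the FG repeats, had 36.9 FPKM in the A673 DMSO library, 85.8 under 50 nM and 33.8 under 200 nM THZ1, and 35.2, 128 and 55.9 FPKM in SKNMC. The 50 nM libraries thus held 2.32 times the DMSO level in A673 and 3.64 times in SKNMC, log2 changes of 1.19 and 1.84, of which the first was 0.97 with ribosomal protein scaling. At 200 nM NXF1 was near its DMSO level in A673 (log2 change -0.12, above 0 with the 75th percentile) and 0.65 above it in SKNMC, a value that ran from 0.077 with ribosomal protein scaling to 1.21 with the 75th percentile. NXT1, the small subunit that NXF1 needs for binding FG repeats, had 24.1, 14.9 and 4.70 FPKM in A673 and 28.4, 21.1 and 4.86 FPKM in SKNMC. Its log2 changes were -0.65 and -2.14 in A673 and -0.41 and -2.32 in SKNMC, and the latter was the largest decrease among the 41 genes in that line. The ratio of NXF1 to NXT1, both in FPKM and so independent of scaling between libraries, went from 1.53 in the A673 DMSO library to 5.74 under 50 nM and 7.19 under 200 nM THZ1, and from 1.24 to 6.07 and 11.5 in SKNMC. NXF1 is known to make a second transcript that keeps an intron, and values per gene do not separate its forms.

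The THO complex and ALYREF act before NXF1 in loading the mRNA. With FPKM as deposited, none of the 6 THO genes was at least 2-fold lower or higher in any of the 4 comparisons with DMSO. In the single comparisons 15.8% to 27.3% of all active genes were at least 2-fold lower and 0.126% to 0.471% higher. The share past the limit in any of the 4 was not computed, so these shares are no background for the count. With ribosomal protein scaling THOC1 in A673 (-1.03) and THOC6 and THOC7 in SKNMC (-1.20 and -1.03) passed the limit at 200 nM. Unscaled, their log2 changes ran from -0.70 (THOC1 in A673 at 200 nM) to 0.49 (THOC3 in SKNMC at 50 nM). THOC2, the large scaffold of THO, had 47.6, 50.7 and 42.8 FPKM in A673 and 38.4, 43.6 and 37.3 FPKM in SKNMC. THOC5 was below DMSO in all 4 THZ1 libraries (-0.35, -0.26, -0.19 and -0.33), whereas THOC3 was above it in all 4 (0.16, 0.04, 0.49 and 0.12). For each of these genes the sign turned under a scaling in 3 of the 4 comparisons. THOC6 and THOC7 were within 0.20 of 0 in A673 and lower in SKNMC, at -0.56 and -0.64 for THOC6 and -0.37 and -0.47 for THOC7. ALYREF, the adaptor that hands the mRNA to NXF1, had 122, 110 and 125 FPKM in A673 and 88.5, 66.9 and 74.4 FPKM in SKNMC.

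**Figure D3:**
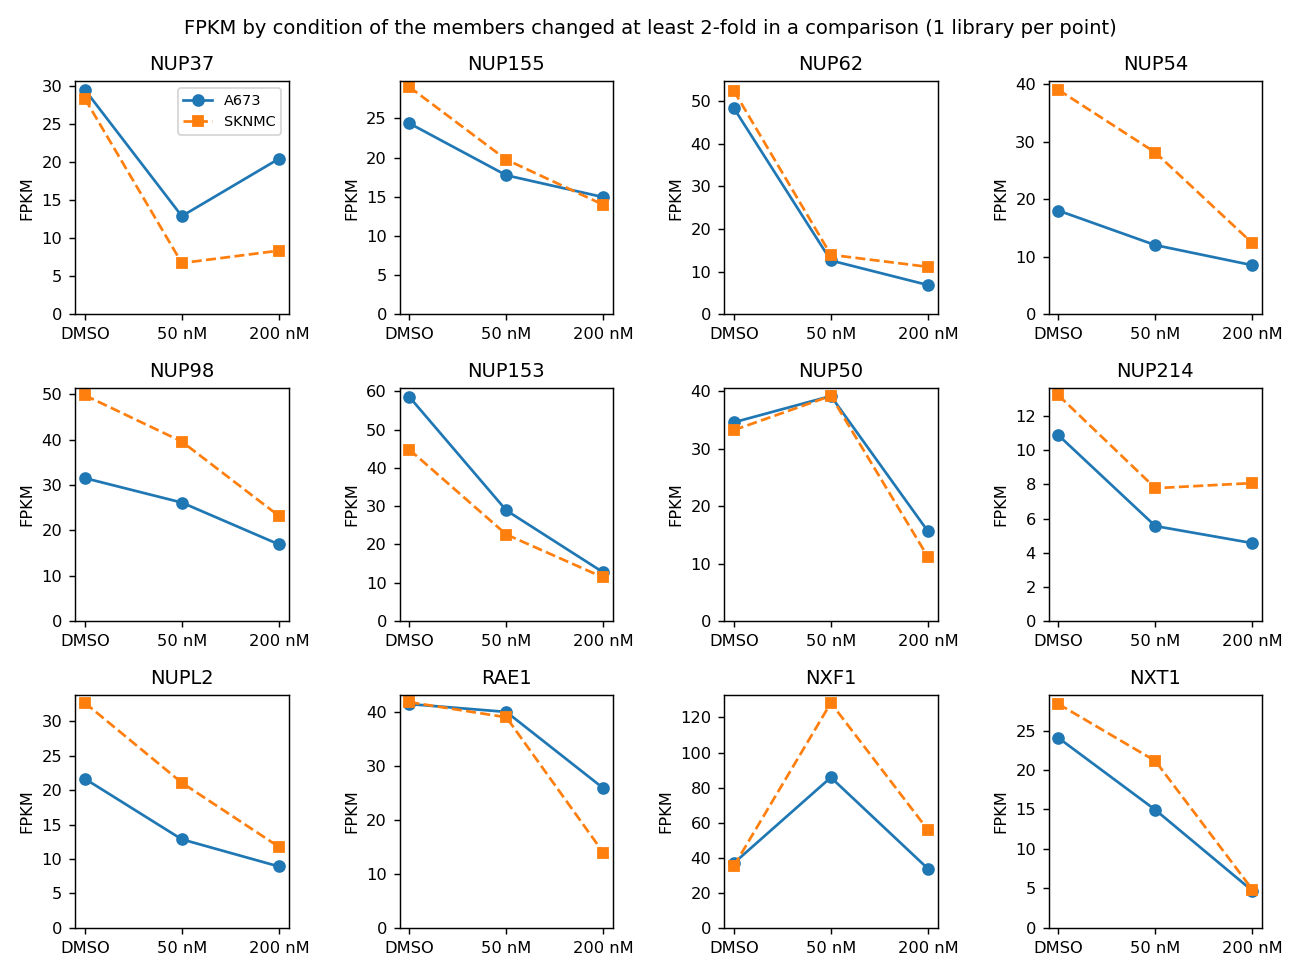
FPKM with DMSO, 50 nM and 200 nM THZ1 in A673 (circles, solid lines) and SKNMC (squares, dashed lines) for the 12 genes that changed at least 2-fold in a comparison with DMSO, each axis starting at 0 and each point 1 library. NXF1 peaks at 50 nM with 85.8 and 128 FPKM, NUP37 is lowest at 50 nM, and NUP50 is below DMSO at 200 nM alone. NUP62, NUP153, NXT1, NUP54, NUP98, NUPL2, NUP155 and RAE1 go down with dose in both lines, RAE1 mostly at the step to 200 nM. NUP214 goes down with dose in A673 alone.

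Of the 8 outer ring genes, 7 were below DMSO at both doses in both lines, and SEC13 was the exception. In the single comparisons 70.1% to 80.8% of all active genes were below DMSO, and the share below it at both doses in both lines was not computed. Of the 32 values of the outer ring, 9 changed sign under 1 of the scalings. Among these 8 listed genes, NUP37, a peripheral subunit of the Y complex, was the one that passed the 2-fold limit. It had 29.5 FPKM in the A673 DMSO library, 12.9 under 50 nM and 20.4 under 200 nM THZ1, and 28.3, 6.73 and 8.35 FPKM in SKNMC. In both lines the lowest value was that of the lower dose, and the log2 changes were -1.13 and -0.51 in A673 and -1.92 and -1.65 in SKNMC. The first of these was -0.90 when the 75th percentile was used for scaling. The other 6 decreased genes of the outer ring had log2 changes between -0.92 (NUP43 in SKNMC at 200 nM) and -0.16 (NUP160 in SKNMC at 50 nM), among them NUP107 (-0.39, -0.33, -0.56 and -0.49), NUP133 (-0.24, -0.31, -0.47 and -0.79) and NUP85 (-0.57, -0.88, -0.67 and -0.88). SEH1L, a subunit shared with a complex of nutrient signalling, had -0.29, -0.61, -0.36 and -0.65. SEC13 had 79.8, 90.3 and 88.8 FPKM in A673 and 63.3, 61.3 and 42.7 FPKM in SKNMC.

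The inner ring held close to its DMSO level in part. NUP188 had 47.6, 50.1 and 48.5 FPKM in A673 and 32.0, 33.7 and 36.3 FPKM in SKNMC, with log2 changes of 0.18 at most, a range shared by THOC2. All 4 values of NUP188 were above 0, and below it with ribosomal protein scaling. NUP93, which links the inner ring to the channel, had log2 changes of 0.09 and -0.14 in A673 and 0.10 and -0.22 in SKNMC. NUP205, the large paralog of NUP188, was lower in all 4 THZ1 libraries (-0.52, -0.44, -0.58 and -0.46). NUP155, which contacts the membrane, had 24.4, 17.7 and 15.0 FPKM in A673 and 29.0, 19.7 and 14.0 FPKM in SKNMC, and its last value was a log2 change of -1.003, at the limit of 2-fold. NUP35 had -0.38 and -0.62 in A673 and 0.07 and -0.48 in SKNMC.

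Of the membrane anchors, NDC1 had 21.7, 13.9 and 14.8 FPKM in A673 and 47.9, 35.9 and 36.7 FPKM in SKNMC, so that the difference between the lines seen with DMSO was present at both doses. AAAS (aladin), which NDC1 holds at the pore, had log2 changes of -0.11, 0.12, -0.37 and -0.10. NUP210 stayed near its low levels, at 0.184, 0.232 and 0.204 FPKM in A673 and 1.81, 1.82 and 1.69 FPKM in SKNMC, levels at which 1 library each cannot show a change.

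All 6 genes of the cytoplasmic face were below DMSO in all 4 THZ1 libraries. Of all 41 genes, 24 were below DMSO in all 4. In the single comparisons 70.1% to 80.8% of all active genes were below DMSO, and the share of active genes below it in all 4 was not computed. Of the 24 values of these 6 genes, 5 changed sign under 1 of the scalings. NUPL2 (NUP42), an FG protein that binds GLE1, had 21.7, 12.9 and 8.93 FPKM in A673 and 32.7, 21.1 and 11.8 FPKM in SKNMC, past 2-fold at 200 nM in both lines (log2 change -1.19 and -1.40). NUP214, the platform of the cytoplasmic filaments, had 10.9, 5.56 and 4.56 FPKM in A673 and 13.2, 7.78 and 8.07 FPKM in SKNMC, past 2-fold in A673 at 200 nM alone (-1.09). Its partner NUP88 had log2 changes of -0.49 and -0.43 in A673 and of -0.83 and -0.97 in SKNMC. RAE1, an mRNA export factor bound to NUP98, was near DMSO at 50 nM and lower at 200 nM, with 41.5, 40.1 and 25.9 FPKM in A673 and 41.9, 39.1 and 14.0 FPKM in SKNMC. RANBP2, a giant filament protein with RAN binding domains, had a similar course, at 17.2, 16.8 and 9.50 FPKM in A673 and 20.1, 20.0 and 9.59 FPKM in SKNMC. Its copies, the RGPD genes, share most of its sequence, and the 7 that are listed were each below 1 FPKM in all 6 libraries. How reads were divided among these copies was not tested. GLE1 had -0.39 and -0.26 in A673 and -0.69 and -0.94 in SKNMC. In SKNMC at 200 nM, NUP88, RANBP2 and GLE1 were short of the 2-fold limit only through the pseudocount. Their FPKM there was 49.4%, 47.6% and 48.5% of the DMSO level.

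The transport receptors and RAN differed in how much of their level they kept. RAN had 646, 586 and 610 FPKM in A673 and 632, 567 and 514 FPKM in SKNMC, log2 changes between -0.30 and -0.08. KPNB1 had 109, 94.5 and 80.9 FPKM in A673 and 149, 109 and 82.3 FPKM in SKNMC. Its largest decrease was -0.85, in SKNMC at 200 nM, beside a median of -0.55 over all active genes there. XPO1 had 101, 117 and 75.03 FPKM in A673 and 116, 122 and 109 FPKM in SKNMC, above DMSO at 50 nM and below it at 200 nM in both lines. Of the 12 values of this role 8 changed sign under 1 of the scalings, among them 3 of the 4 of XPO1.

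The step from 50 to 200 nM was compared within each line. In A673, 28 of 40 active genes (70.0%) were lower at 200 nM than at 50 nM, against 51.7% of all active genes, and in SKNMC 32 of 41 (78.0%), against 62.0%. At least 2-fold lower at 200 nM were 4 of 40 genes in A673 (NUP153, NUP50, NXF1 and NXT1; 7.44% of all active genes) and 5 of 41 in SKNMC (NUP54, NUP50, RAE1, NXF1 and NXT1; 8.39%). None was at least 2-fold higher (0.117% and 0.37%). The largest step was that of NXT1 in both lines, -1.48 in A673 and -1.92 in SKNMC. NXF1, with -1.32 and -1.18, was up at least 2-fold and then down at least 2-fold, a course that 15 of 11077 active genes in A673 (0.135%) and 17 of 11896 in SKNMC (0.143%) shared. Both steps rest on the same 50 nM library, so they are not independent.

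**Figure D4:**
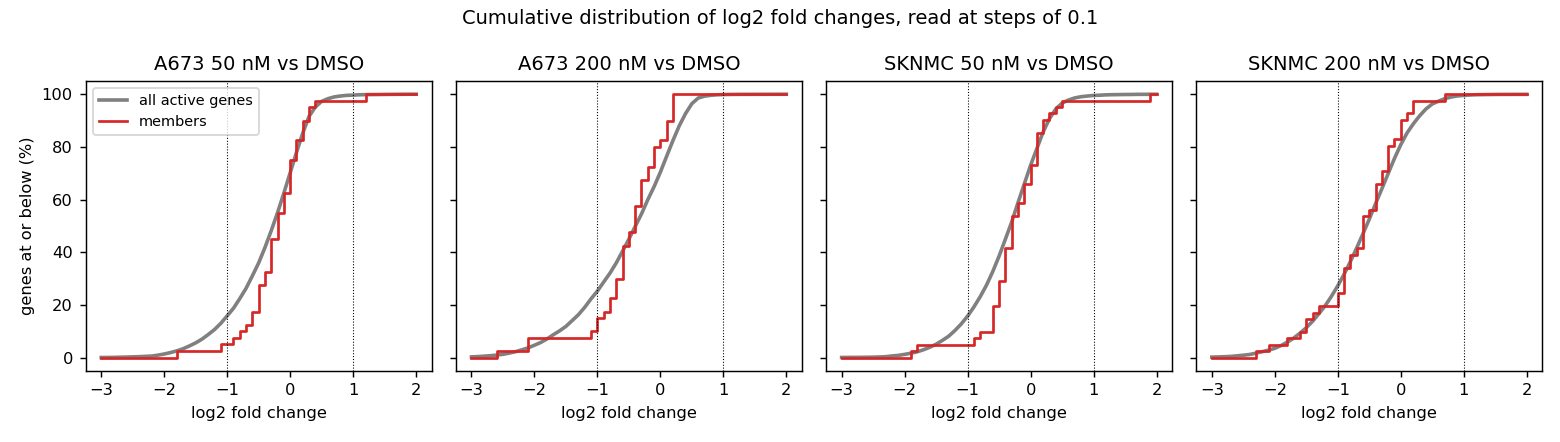
Cumulative share of genes (in %) at or below each log2 change, for the active genes among the 41 (red steps) and for all active genes (grey), in the 4 comparisons with DMSO, with dotted lines at 2-fold. The red steps lie below the grey curve around -1 in both 50 nM panels, where 5.00% and 4.88% of the genes were at least 2-fold lower against 15.9% and 15.8%, and close to it in the SKNMC 200 nM panel, with 24.4% against 27.3%.

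The lines were compared over the 40 genes active in both. At 50 nM, 28 genes were below DMSO in both lines, 8 were above it in both and 4 differed in sign, and at 200 nM the numbers were 31, 2 and 7. The sign was shared by 90% of the genes at 50 nM and by 82.5% at 200 nM, against 84.8% and 81.3% of the 10574 genes active in both lines. Across these genes, which are not independent replicates, Spearman's rho between the lines was 0.81 at 50 nM and 0.71 at 200 nM (n = 40), and 0.84 and 0.82 over all genes active in both lines. At least 2-fold lower in both lines were NUP62 and NUP37 at 50 nM (5.00% of the 40, against 11.4% of all genes active in both lines) and NUP62, NUP153, NUP50, NUPL2 and NXT1 at 200 nM (12.5% against 20.4%). NUP37 differed most between the lines, by 0.79 at 50 nM and 1.14 at 200 nM on the log2 scale, with the larger decrease in SKNMC. The median difference between the lines was 0.16 at 50 nM and 0.23 at 200 nM.

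**Figure D5:**
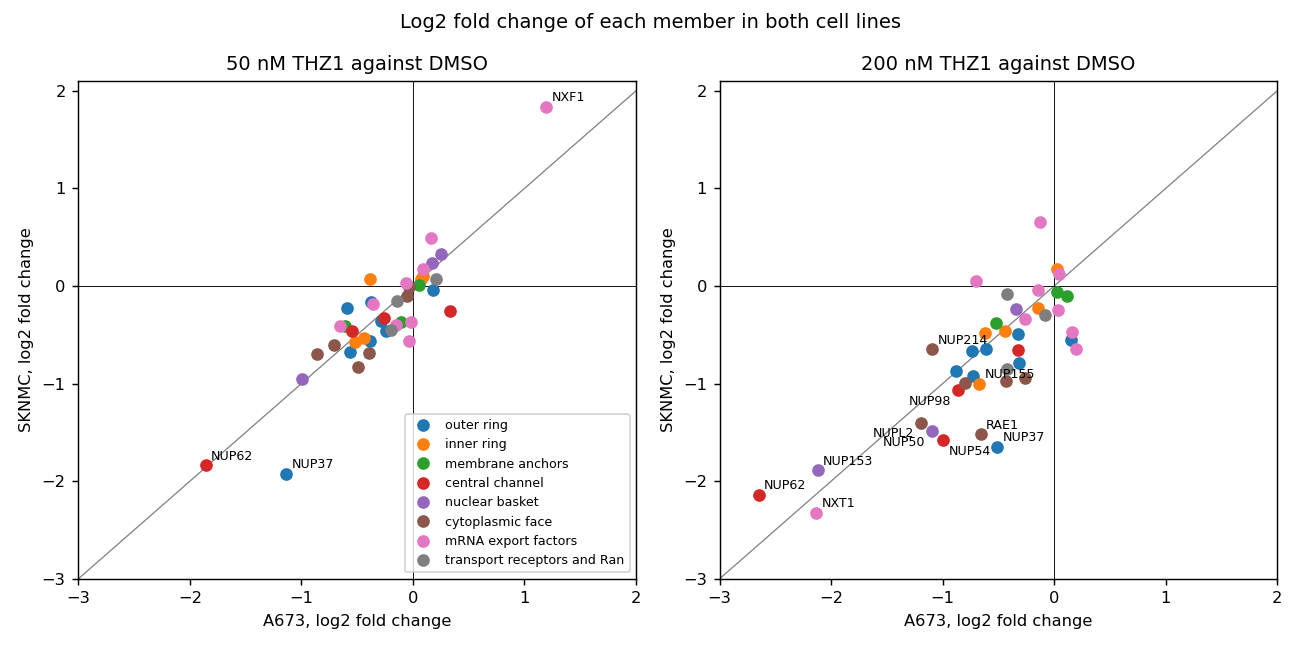
Log2 change against DMSO of each of the 41 genes in A673 (horizontal) and SKNMC (vertical) at 50 nM (left) and 200 nM THZ1 (right), colored by role, with the diagonal of equal change and the names of genes past 2-fold in either line. NXT1 and NUP153 lie near the diagonal at 200 nM, NUP62 lies above it (-2.65 in A673 and -2.14 in SKNMC), NUP37 lies below it at both doses, and NXF1 is the one gene far above 0 at 50 nM in both lines.

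A list of 50 other genes of nuclear transport was followed alongside, of which all were found and 49 were active in each line. At 50 nM, 2 of 49 were at least 2-fold lower in A673 (15.9% of all active genes) and 4 of 49 in SKNMC (15.8%). At 200 nM 8 of 49 were in A673 (25.3%) and 12 of 49 in SKNMC (27.3%), and none was at least 2-fold higher at either dose. Their median log2 changes were -0.28 and -0.32 in A673 and -0.29 and -0.52 in SKNMC, beside -0.27, -0.40, -0.32 and -0.55 over all active genes. The other nucleoporins on the list included POM121, a membrane anchor, at 15.4, 9.05 and 3.39 FPKM in A673 and 30.3, 20.0 and 10.5 FPKM in SKNMC, its near-identical copy POM121C, and AHCTF1 (ELYS), which seeds pores on chromatin, at 32.7, 20.0 and 10.8 FPKM in A673 and 37.2, 21.1 and 12.7 FPKM in SKNMC. All 3 were at least 2-fold lower at 200 nM in both lines, whereas the fourth active nucleoporin of the list, TMEM33, had log2 changes of -0.13 in A673 and -0.39 in SKNMC. Reads of POM121 and POM121C may have been divided between them. IPO13, an importin, was the 1 gene of the list at least 2-fold lower at 50 nM in both lines, with 17.0, 7.55 and 8.91 FPKM in A673 and 22.9, 7.39 and 7.78 FPKM in SKNMC. CHTOP, an export adaptor that binds NXF1, had log2 changes of -1.43 and -1.41 in A673 and -0.86 and -1.35 in SKNMC. PHAX, the adaptor for export of small nuclear RNA, was near DMSO at 50 nM (0.03 and -0.01) and at least 2-fold lower at 200 nM (-1.52 and -1.81). Also at least 2-fold lower at 200 nM in both lines were the importin KPNA2 (-1.19 and -1.11) and the exportin XPO6 (-1.36 and -1.01). So was RANBP3, listed with the RAN cycle (-1.24 and -1.18).

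The length of the gene was set beside its change. Over the 40 or 41 active genes, with spans from 3730 to 132496 bases on hg19, Spearman's rho between the span and the log2 change was 0.0032 and -0.097 in A673 and 0.13 and 0.20 in SKNMC (50 and 200 nM), beside 0.18, -0.014, 0.18 and 0.043 over all active genes. NXF1 spans chr11:62559594-62573774 on the minus strand, NXT1 chr20:23331372-23335414 on the plus strand, NUP62 chr19:50410081-50433020 and NUP37 chr12:102467966-102513902, both on the minus strand (hg19). Whether strand was used in counting is not given in the sources used here. Exons of another gene covered at least 10% of the exon bases of 6 of the 41 genes in GENCODE on GRCh37: NUP54, NUP153, NUP88, NUPL2, GLE1 and THOC6. For NUP88 the share was 31.7%, from RABEP1 on the other strand, for NUP153 it was 10.6% and for NUP62, which overlaps ATF5 on the other strand, 9.38%. NUP62 also shares 5.58% of its exon bases with IL4I1 and 6.38% with an unnamed protein-coding gene on its own strand, which strand would not separate. Reads of the pairs on opposite strands cannot be told apart without strand.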

How the data were processed

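The authors prepared TruSeq libraries from total RNA, sequenced paired-end reads on a HiSeq, aligned them to hg19 with STAR and estimated expression per Ensembl gene. The deposited values are FPKM. The paper's methods name StringTie for this step, while the processing notes of the submitters name STAR and Cufflinks. The table lists protein-coding and lincRNA genes. Its title speaks of average expression, whereas the labels give 1 library per condition, and each column was used as 1 library. Column names matched the sample titles. The authors' columns of log2 fold changes were not used. FPKM holds no read counts, and counting error could therefore not be estimated.

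Log2 changes were computed with a pseudocount of 1 (Python 3.11.15, pandas 2.3.3) and calls were made at 2-fold among genes above 1 FPKM with DMSO. With 1 library per condition no test was run. The steps were tested on simulated data. The members and lists were chosen with earlier results of these data known. Values in all 6 libraries were printed for genes changed at least 2-fold in a comparison with DMSO, the 5 genes highest with DMSO and the one with the smallest change, and in addition for some neighbours by role. Of the other transport genes, the rule named those changed at least 2-fold in both lines at 50 nM. POM121, POM121C, AHCTF1, TMEM33, CHTOP, PHAX, KPNA2, XPO6 and RANBP3 were named after their values were seen. Alternatives were a pseudocount of 0.1, no filter or a filter at 5 FPKM, 3 scalings, a 1.5-fold limit and protein-coding genes alone as background. Promoters came from RefSeq on GRCh38.p14 (37 of 41 genes) and exon overlaps from GENCODE release 44 lifted to GRCh37. Protein sequences, and the FG counts planned from them, were not analysed here.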

Additional observations from a re-analysis of the deposited data

Results flagged for a closer look

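For 2 of the 40 genes active in both lines the changes under THZ1 had opposite signs in the 2 cell lines at both doses; with 1 library per condition the difference was not tested, and 5.27% of the 10574 genes active in both lines had such a pattern. SEC13 was higher with THZ1 in A673, with log2 changes of 0.18 at 50 nM and 0.15 at 200 nM, and lower in SKNMC, with -0.046 and -0.56. THOC1 was lower in A673, with -0.058 and -0.70, and higher in SKNMC, with 0.032 and 0.050. Of these 8 values, 6 changed sign under at least 1 of the 3 scalings of the libraries, and the exceptions were SEC13 in SKNMC and THOC1 in A673, both at 200 nM. The value of SEC13 was -0.000124 with the 75th percentile, so its sign was barely kept.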

How the results depend on the processing

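No paired analysis was possible because each condition has 1 library and the labels carry no replicate numbers. Leaving out a library was not possible either. The scalings and the fold limit moved the counts, and the scalings the medians. With the 75th percentile, the genes at least 2-fold lower numbered 1 and 3 in A673 (11.0% and 17.3% of all active genes) and, at 200 nM in SKNMC, 5 (13.4%). In that last comparison 1 gene was higher (4.33% of all active genes). The medians were -0.0074 and -0.069 in A673 and -0.080 and -0.096 in SKNMC. With ribosomal protein scaling 4 and 15 genes were lower in A673 (21.3% and 34.9% of all active genes) and 7 and 27 in SKNMC (27.1% and 50.3%). At 50 nM in A673, 0 were higher (0.162% of all active genes), and the medians in the 4 comparisons were -0.47, -0.79, -0.73 and -1.20. With a 1.5-fold limit 8 and 17 genes were lower in A673 (31.8% and 41.1%) and 8 and 22 in SKNMC (33.5% and 48.0%), with 1 higher at 200 nM in SKNMC (2.81% of all active genes). Under both of these settings the 200 nM shares (37.5% and 42.5% in A673, 65.9% and 53.7% in SKNMC) exceeded those over all active genes. The cause of the scaling's part is its construction, which shifts all genes of a library together; which scaling is closest to RNA per cell was not tested. The pseudocount of 0.1, both filters, the common sum and the protein-coding background left every count within 1.5 times and every median below 0. No log2 change past 2-fold reversed its sign. The relative depth is known roughly and the absolute depth not at all, which limits NUP210 most.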
